A study of Mus musculus with 8 samples.

Results

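The 45 genes described here build and anchor the actin skeleton of macrophages, and were chosen by name as a list of actin cytoskeleton and podosome genes. They were sorted into the Arp2/3 complex (9 genes), nucleation factors (6), actins and monomer-binding proteins (8), capping and severing proteins (9), and bundling and adhesion plaque proteins (13). Of the 45, 41 had at least 1 probe on the array and 39 had a probe kept for testing, out of 7982 genes tested in all. The genes with no probe by name were Actr2, Arpc3, Actg1 and Ezr. Vasp and Fscn1 had 1 probe each that stayed near the median probe intensity of 86.2, between 83.4 and 109 for Vasp and between 81.2 and 95.4 for Fscn1, and neither was tested.

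RNA from bone marrow macrophages of mice was read on Illumina beadchips, 1 per library, in 4 libraries labelled vav1-/- (called KO 1 to KO 4) and 4 labelled WT (called WT 1 to WT 4). The KO libraries are given as coming from vav1-/- mice and the WT libraries from C57BL/6 mice, with C57BL/6 entered as the strain of all 8. Mice of both sexes, 7 to 12 weeks old, were used for both genotypes, and no treatment is named. Whether each library stands for its own animal is not stated in the labels, so that the tests rest on a spread among libraries that may be only technical. The knockout is of the whole animal, and the labels name no promoter or cell type that would limit it.

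Actin filaments push the macrophage membrane forward and form podosomes, small adhesive columns with a branched actin core inside a ring of plaque proteins. Rac and Cdc42, small GTPases switched on by exchange factors such as Vav1, act through WAVE and WASP proteins to turn on the Arp2/3 complex, which starts new filaments as branches on old ones. Capping, severing and monomer-binding proteins then set how long filaments grow and how fast actin is recycled. The design asks how expression differs in macrophages of mice without Vav1.

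The targeted gene went against the labels. Its only probe read 1805, 1699, 308 and 288 in KO 1 to KO 4, against 1825, 1642, 267 and 384 in WT 1 to WT 4. Both labels therefore held 2 high and 2 low libraries, and the sources used here do not place this probe inside or outside the deletion. KO and WT are used below only as the labels of the libraries, and every direction is that of the libraries labelled KO relative to those labelled WT. Macrophage markers were read under both labels: 11 of 12 were measured, and their summed intensity ranged from 70763 to 75609 over the libraries labelled KO and from 67639 to 82773 over those labelled WT. That sum is weighted to its brightest markers, Lyz1, Lyz2 and Sirpa. Among monocyte, neutrophil, dendritic, lymphocyte, stromal, erythroid and megakaryocyte, osteoclast and endothelial markers, few were measured, namely 1 of 5, 2 of 9, 1 of 8, 1 of 9, 1 of 9, 1 of 7, 3 of 6 and 1 of 5. Their signal was not always low. The lymphocyte marker Il7r read 2736 to 4189 and the erythroid and megakaryocyte marker Pf4 3485 to 7143, above the macrophage markers Cd14, Fcgr1, Mertk and Itgam in every library. The other markers of these types read at most 758. In bulk samples of this kind, fewer cells of a type and less RNA per cell cannot be told apart.

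The library labelled WT 4 stood apart before any comparison of the actin genes. Over all tested probes its correlations with the other 7 libraries were 0.839 to 0.901, against 0.971 to 0.996 among those 7. On their representative probes, macrophage markers moved both ways in it, by -1.45 for Cd14, -1.07 for Csf1r, -0.91 for Tyrobp and -0.59 for Fcgr1 and by 0.69 for Adgre1, 0.52 for Lyz1 and 0.47 for Lyz2, on the log2 scale against the mean of the other 7. The highest summed intensity given above, 82773, is that of WT 4. Acta2, the stromal marker measured, moved by 0.99 there, at 218 in WT 4 against 109 to 132 in the other 7. The part of cell make-up in the readings of WT 4 was not tested. Log2 fold changes of the actin genes are given below both over all 8 libraries and without WT 4.

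No actin or podosome gene passed the test between the labels. At an adjusted p under 0.05 in limma, 0 of the 39 genes passed, where 0% of all 7982 genes did, and 0 of 39 had an unadjusted p under 0.05, where 0.338% of all genes did. The lowest adjusted p of any actin gene was 0.795. The log2 fold changes ran from -0.26 to 1.14 with a median of 0.08, against a median of -0.038 over all genes. Positive values were seen in 24 of the 39 genes (61.5%), and in 43.4% of all genes. Without WT 4 the median was 0.03, with 26 of 39 positive against 46.3% of all genes. In that fit 0 passed, and 0 had an unadjusted p under 0.05 (0.376% of all genes). The lowest adjusted p of an actin gene in limma was then 1.00 after rounding. With WT 1 also left out, the median was -0.011, with 19 of 39 positive against 49.3% of all genes, and 0 had an unadjusted p under 0.05 (0.301% of all genes). In 0 of the 39 genes did the 4 libraries labelled KO lie wholly above those labelled WT (0.526% of all genes) or wholly below them (0.589%), 1.12% in all. Without WT 4 the count was 0 of 39 (1.67% of all genes), and without WT 1 and WT 4 it was 1, Actn1 (5.15% of all genes).

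**Figure D1:**
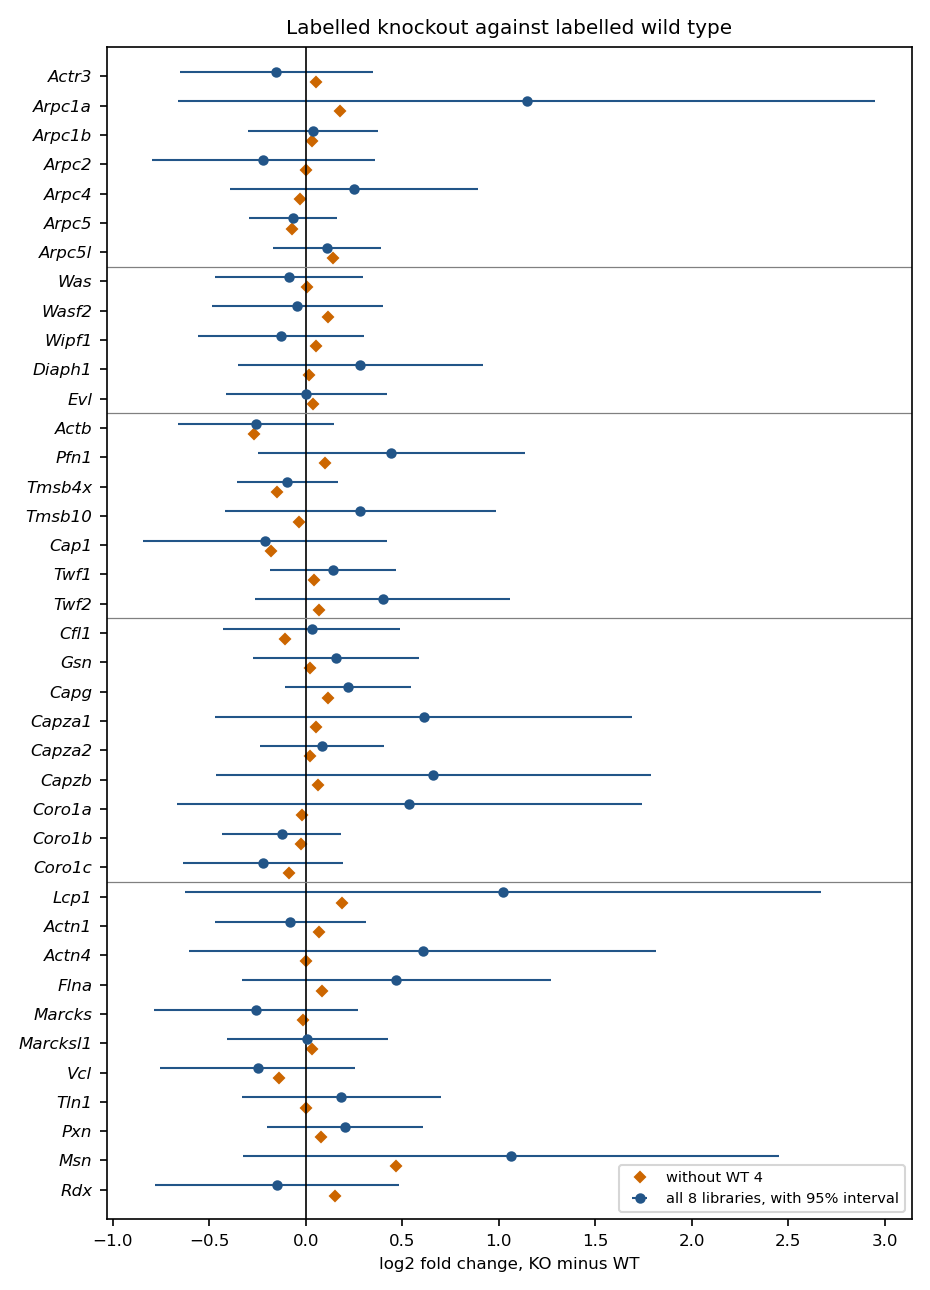
Log2 fold change (x axis) of the libraries labelled KO relative to those labelled WT for the 39 tested genes (y axis), grouped by role in the order of the text. Circles with bars give the limma estimate and its 95% interval over all 8 libraries, and diamonds the estimate without WT 4. Every interval includes 0, and the longest belong to Arpc1a, Lcp1 and Msn.

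The size of a change that could have escaped the test differed between genes. The 95% interval of the log2 fold change reached 0.23 to 1.81 on either side of the estimate, with a median of 0.50. Arpc5 had the narrowest interval, from -0.29 to 0.16, and Arpc1a the widest, from -0.66 to 2.95. The 7 genes over 0.5 in absolute log2 fold change were Arpc1a, Capza1, Capzb, Coro1a, Lcp1, Actn4 and Msn. Without WT 4, 0 of the actin genes were over 0.5, and the largest was Msn at 0.47 ± 0.40 (SE). The share of all genes over 0.5 was not counted in either fit, so these counts have nothing to be set against.

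**Figure D2:**
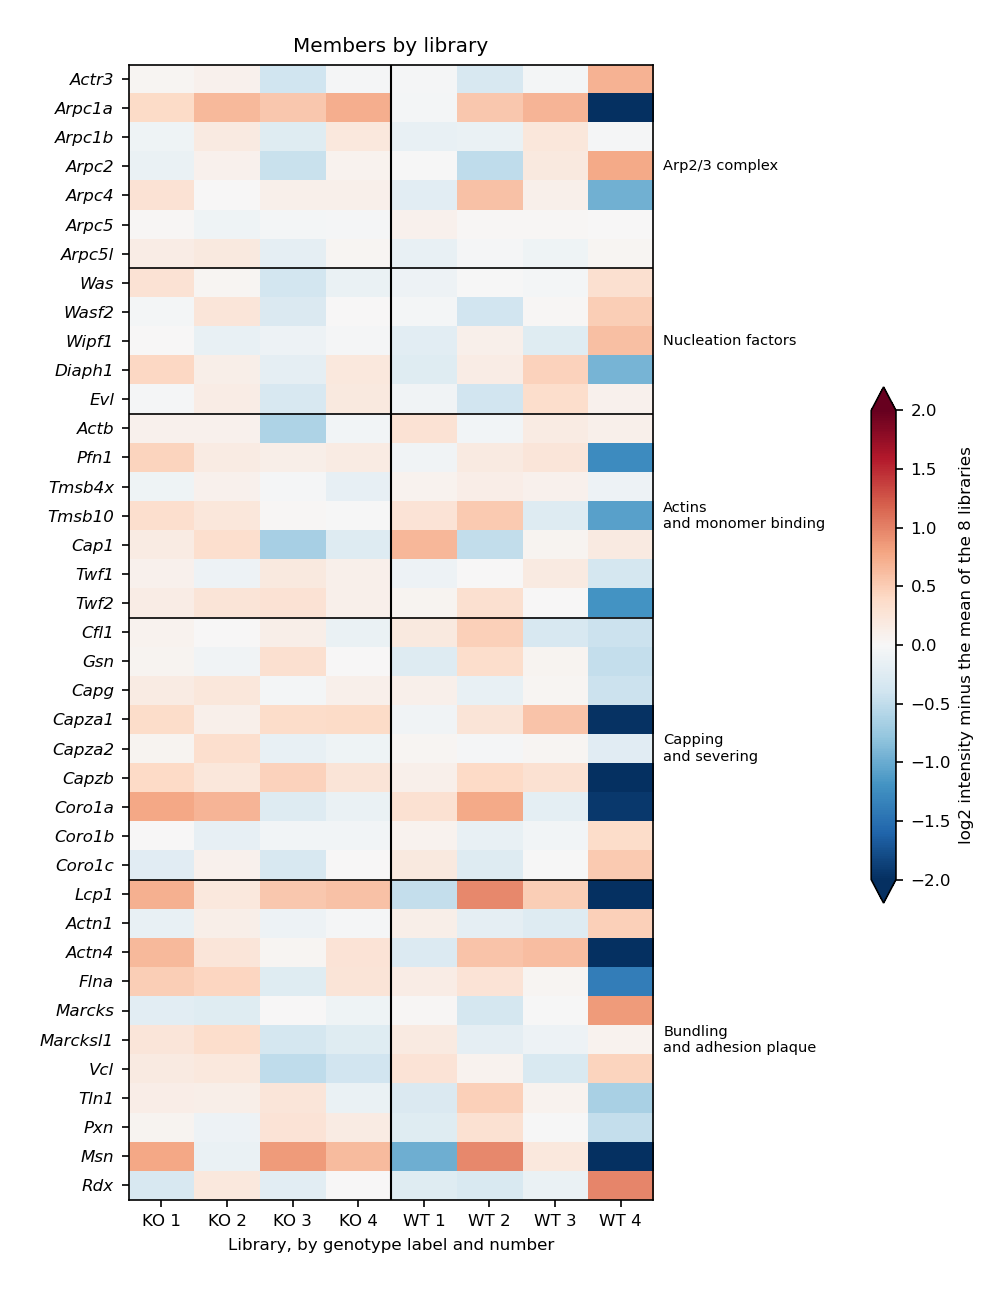
Log2 intensity of each of the 39 genes (rows, by role) in each library (columns), minus the mean of the 8 libraries and cut at 2 in either direction for colour. WT 4 spans from -3.47 to 0.97, while the other 7 libraries stay between -0.98 and 0.96.

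The Arp2/3 complex has 7 subunits, of which Arp2 and Arp3 resemble actin itself and the Arpc proteins hold them in place. In the libraries tested, 7 of the 9 listed genes were measured, 0 passed, 4 had positive and 3 negative values, and the median log2 fold change was 0.04, or 0.03 without WT 4. Arpc5, a small subunit at the edge of the complex, had the smallest standard error of the whole list. It read 11339.7, 10603, 10931 and 10994 in KO 1 to KO 4 and 11859, 11339.7, 11415 and 11245 in WT 1 to WT 4. KO 2 to KO 4 lay below all libraries labelled WT, and KO 1 lay among them. The log2 fold change was -0.06 ± 0.10 (SE, adjusted p = 0.815 in limma), and -0.07 without WT 4. Its paralogue Arpc5l, which can take the place of Arpc5, read 253, 261, 206 and 236 in KO 1 to KO 4, against 209, 227, 218 and 235 in WT 1 to WT 4, with a log2 fold change of 0.11 ± 0.12 (SE), or 0.14 without WT 4.

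The paralogues Arpc1a and Arpc1b are alternative propeller-shaped subunits, and their brightest probes read WT 4 differently. The brightest probe of Arpc1a read 996, 1186, 1102 and 1255 in KO 1 to KO 4 and 749.9, 1108, 1211 and 89.6 in WT 1 to WT 4. Apart from WT 4, which lay near the array's median intensity, the groups overlapped. The log2 fold change of 1.14 ± 0.80 (SE, adjusted p = 0.795 in limma) was 0.18 without WT 4 and -0.036 without WT 1 as well. The brightest probe of Arpc1b read 3728, 4448, 3349.7 and 4580.1 in KO 1 to KO 4 and 3565, 3612, 4626 and 3865 in WT 1 to WT 4. Here WT 4 lay within the range of the other libraries, although another Arpc1b probe, described further on, was low in it, and the log2 fold change was 0.04 ± 0.15 (SE), or 0.03 without it.

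The remaining subunits split in the same library. Arpc4, a core subunit, read 1186, 982, 1044 and 1045 in KO 1 to KO 4 and 843, 1453, 1043 and 510.0 in WT 1 to WT 4, the last of these the lowest of all. Arpc2, which with Arpc4 forms that core, read 4009 to 5791 in the libraries labelled KO and 3851 to 6252 in WT 1 to WT 3, with 9290.5 in WT 4. Actr3, which encodes Arp3, read 5942 to 8288 in the libraries labelled KO and 6226 to 7639 in WT 1 to WT 3, with 12621 in WT 4. So WT 4 was lowest for Arpc1a and Arpc4 and highest for Arpc2 and Actr3. The log2 fold changes were 0.25 for Arpc4, -0.22 for Arpc2 and -0.15 for Actr3, and without WT 4 they were -0.031 for Arpc4, -0.00066 for Arpc2 and 0.06 for Actr3.

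Nucleation factors switch on Arp2/3 or build unbranched filaments. Of the 6 listed genes 5 were measured, 0 passed, 2 had positive and 3 negative values, and the median log2 fold change was -0.043, or 0.04 without WT 4. Was encodes WASP, the Cdc42 effector needed for macrophage podosomes, and read 1895, 1593, 1199 and 1407 in KO 1 to KO 4 against 1440.2, 1532, 1512 and 1934 in WT 1 to WT 4. KO 3 and KO 4 lay below every library labelled WT, and KO 1 and KO 2 lay among them. The log2 fold change was -0.09 ± 0.17 (SE), and 0.0078 without WT 4. Wipf1 encodes WIP, which binds and stabilises WASP. It read 1731, 1552, 1599 and 1683 in KO 1 to KO 4 against 1476, 1845, 1449 and 2595 in WT 1 to WT 4, so that WT 4 was the highest library and WT 2 the next. Its log2 fold change was -0.13 ± 0.19 (SE), and 0.05 without WT 4.

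Wasf2, the WAVE protein that responds to Rac, had a log2 fold change of -0.04 ± 0.20 (SE). Its intensity was 4716 in WT 4 and 2567 to 3947 elsewhere, and leaving WT 4 out turned the value to 0.11. A dim second Wasf2 probe went the other way, at 80.1 in WT 4 and 139 to 171 elsewhere. It gave 0.23 ± 0.26 (SE), and -0.056 without WT 4. Evl, an Ena/VASP protein that speeds filament growth, was at 0.0039 ± 0.18 (SE), or 0.04 without WT 4, with 1732 to 2472 in the libraries labelled KO and 1657 to 2738 in those labelled WT. Diaph1, a formin that builds unbranched filaments, was dim. It read 199.7, 166, 140.5 and 177 in KO 1 to KO 4 and 135, 169.7, 206 and 92.0 in WT 1 to WT 4. WT 4 was again the lowest, and the log2 fold change of 0.28 ± 0.28 (SE) was 0.02 without it.

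Actins and the proteins that hold actin monomers had a median log2 fold change of 0.14 over 7 of 8 listed genes, or -0.033 without WT 4, with 4 positive and 3 negative values, and 0 passed. Actb encodes beta-actin, the main actin of non-muscle cells, and has 5 kept probes. The brightest on average read 13073, 13073, 8025 and 11916 in KO 1 to KO 4 and 15157, 11916, 13880.4 and 13293 in WT 1 to WT 4. KO 3 was the lowest, and the log2 fold change was -0.26 ± 0.18 (SE, adjusted p = 0.795 in limma), or -0.27 without WT 4. A second Actb probe read 12928, 10792, 10659 and 11415 in KO 1 to KO 4 and 2044, 14096, 9596 and 246 in WT 1 to WT 4. On that probe WT 4 and WT 1 were far below the other 6 libraries, while on the first probe neither was low. Its log2 fold change was 2.03 ± 1.10 (SE, adjusted p = 0.795 in limma), 0.81 without WT 4 and -0.027 without both, so the sign of the beta-actin value depends on the probe and on these 2 libraries.

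Of the other 3 Actb probes, 1 read 1763, 1722, 696 and 1447 in KO 1 to KO 4 and 962, 1358, 1642 and 125 in WT 1 to WT 4. The last 2 were near the array's median, at 102 to 118 in the libraries labelled KO and 80.7 to 126 in those labelled WT. Pfn1 encodes profilin, which feeds actin monomers to growing ends. Its brightest probe read 2872, 2385, 2291 and 2379.9 in KO 1 to KO 4 and 2025, 2407, 2519 and 904 in WT 1 to WT 4, and its other kept probe was at 82.4 in WT 4 but at 978 to 1782 elsewhere. On the brightest probe the log2 fold change was 0.44 ± 0.31 (SE, adjusted p = 0.795 in limma), and 0.10 without WT 4.

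Thymosins hold actin monomers in reserve. Tmsb4x read 16006, 18085, 16782 and 15157 in KO 1 to KO 4 and 17922, 18736, 18085 and 15786 in WT 1 to WT 4, with overlapping groups and a log2 fold change of -0.10 ± 0.12 (SE), or -0.15 without WT 4. Tmsb10, a second thymosin, read 4313, 4002, 3481 and 3405 in KO 1 to KO 4 and 4128, 4910.3, 2859 and 1629 in WT 1 to WT 4. Under either label, numbers 1 and 2 lay above numbers 3 and 4, as they did for Vav1. The other 2 kept Tmsb10 probes did not part the numbers, and on the brighter of them WT 1, at 1623, lay below KO 3, KO 4 and WT 3, at 1700.4, 1857 and 1961. The log2 fold change between the labels was 0.28 ± 0.31 (SE), and -0.033 without WT 4.

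Twinfilins bind monomers and cap filament ends. Twf1 was near the array's median, at 106, 95.6, 113 and 107 in KO 1 to KO 4 and 95.8, 102, 112 and 84.0 in WT 1 to WT 4, with a log2 fold change of 0.14 ± 0.14 (SE), or 0.04 without WT 4. Twf2 read 577, 620.1, 631 and 559 in KO 1 to KO 4 and 542, 647, 527 and 242 in WT 1 to WT 4. WT 4 was the lowest library of Twf2 by over 2-fold, and the log2 fold change was 0.40 ± 0.29 (SE), and 0.07 without that library. Cap1, which recycles actin monomers with cofilin, varied more among the other libraries. It read 889, 992, 511 and 669 in KO 1 to KO 4 and 1239.5, 574, 827 and 901 in WT 1 to WT 4, and the log2 fold change was -0.21 ± 0.28 (SE), or -0.18 without WT 4.

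All 9 capping and severing genes were measured, 0 passed, 7 had positive and 2 negative values, and the median log2 fold change was 0.16, or 0.02 without WT 4. Capg caps filament ends in macrophages in response to calcium. Its brightest probe read 3844, 4025, 3354 and 3693 in KO 1 to KO 4 and 3685, 3131, 3534 and 2573 in WT 1 to WT 4. WT 4 was the lowest and WT 2 the next, and the value was 0.22 ± 0.14 on the log2 scale (SE, adjusted p = 0.795 in limma), or 0.11 without WT 4. The second Capg probe gave 0.02 ± 0.20 (SE), or -0.094 without WT 4.

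Capping protein is a pair of an alpha and a beta subunit. Capzb, the beta subunit, read 1947, 1734, 2035 and 1769.6 in KO 1 to KO 4 and 1604, 1947, 1835 and 358 in WT 1 to WT 4. Capza1, an alpha subunit, read 336, 284, 338 and 341 in KO 1 to KO 4 and 255, 314, 386 and 84.1 in WT 1 to WT 4. In both genes WT 4 was the lowest by over 2-fold and the other libraries overlapped. The log2 fold changes of 0.66 ± 0.50 for Capzb and 0.61 ± 0.48 for Capza1 (SE) were 0.06 and 0.05 without WT 4. Capza2, the other alpha subunit, read 133, 157, 118 and 122 in KO 1 to KO 4 and 131, 126, 132 and 113 in WT 1 to WT 4, and its log2 fold change was 0.08 ± 0.14 (SE), or 0.02 without WT 4.

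Coronins bind filaments and help cofilin and Arp2/3 turn branches over. Coro1a, the coronin of leukocytes, read 3029, 2823, 1493 and 1623 in KO 1 to KO 4 and 2187, 2992, 1545 and 480.0 in WT 1 to WT 4. Like Tmsb10, it was higher in numbers 1 and 2 than in numbers 3 and 4 under either label, with no overlap. Of the 39 genes, 2 (5.13%) were parted in this way, where 7.82% of all genes were parted in either direction, 4.12% with numbers 1 and 2 higher and 3.7% with them lower. Of the other 3 Coro1a probes, 1 parted the numbers as well, and those reading 459.9 to 1069 and 195 to 351 outside WT 4 did not. All 4 Coro1a probes were lowest in WT 4. Between the labels its log2 fold change was 0.54 ± 0.53 (SE), and -0.020 without WT 4.

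Coro1b and Coro1c had log2 fold changes of -0.12 ± 0.14 and -0.22 ± 0.18 (SE), with WT 4 as the highest library at 3213 and 7114. Without WT 4 they were at -0.023 and -0.085. A dim second probe of Coro1b had the lowest unadjusted p of any actin probe, 0.0965, with 133, 127, 124 and 147 in KO 1 to KO 4 against 123, 115, 124 and 81.1 in WT 1 to WT 4. Its log2 fold change was 0.35 ± 0.19 (SE, adjusted p = 0.795 in limma), opposite in sign to that of the brighter probe, and 0.16 without WT 4. Of the 64 kept probes of the 39 genes, this was the 1 whose labelled groups did not overlap. The gap was narrow, between 124.2 in KO 3 and 124.1 in WT 3, and the probe does not represent its gene in the counts above. The share over all kept probes was not counted, and on the brightest probes of all genes it was 1.12%. Cfl1, which encodes the severing protein cofilin, was at 0.03 ± 0.20 (SE), or -0.11 without WT 4, with 239 to 279.9 in the libraries labelled KO and 199 to 354 in those labelled WT. Gsn, which encodes gelsolin, a severing and capping protein of podosomes, was dim, at 104 to 130.3 in the libraries labelled KO and 84.4 to 133 in those labelled WT, with a log2 fold change of 0.16 ± 0.19 (SE), or 0.02 without WT 4.

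Bundling and adhesion plaque proteins tie filaments together and to the membrane. Of 13 listed genes 11 were measured, 0 passed, 7 had positive and 4 negative values, and the median log2 fold change was 0.18, or 0.07 without WT 4. Lcp1 encodes L-plastin, the filament bundler of leukocytes. It read 2100.2, 1494, 1872 and 1933 in KO 1 to KO 4 and 937, 2493, 1814 and 179 in WT 1 to WT 4. WT 4 and then WT 1 were the lowest libraries, and WT 2 was the highest. Its log2 fold change was 1.02 ± 0.73 (SE, adjusted p = 0.795 in limma), 0.19 without WT 4 and -0.21 without WT 1 as well.

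Msn encodes moesin, which links filaments to membrane proteins. Its brightest probe read 862, 475, 917 and 784 in KO 1 to KO 4 and 273, 979, 593 and 122 in WT 1 to WT 4, with the same 2 lowest libraries as Lcp1. On this probe the log2 fold change was 1.06 ± 0.61 (SE, adjusted p = 0.795 in limma), 0.47 without WT 4 and -0.050 without both. A second Msn probe read 242, 214, 262 and 231 in KO 1 to KO 4 and 249.9, 289, 209.8 and 161 in WT 1 to WT 4, where WT 1 was not low, and its log2 fold change was 0.11 ± 0.20 (SE), or -0.070 without WT 4. Rdx encodes radixin, a relative of moesin, and went the other way in WT 4. It read 115, 156, 123 and 138 in KO 1 to KO 4 and 120.2, 115, 128 and 249 in WT 1 to WT 4, and the log2 fold change of -0.15 ± 0.28 (SE) turned to 0.15 without WT 4.

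**Figure D3:**
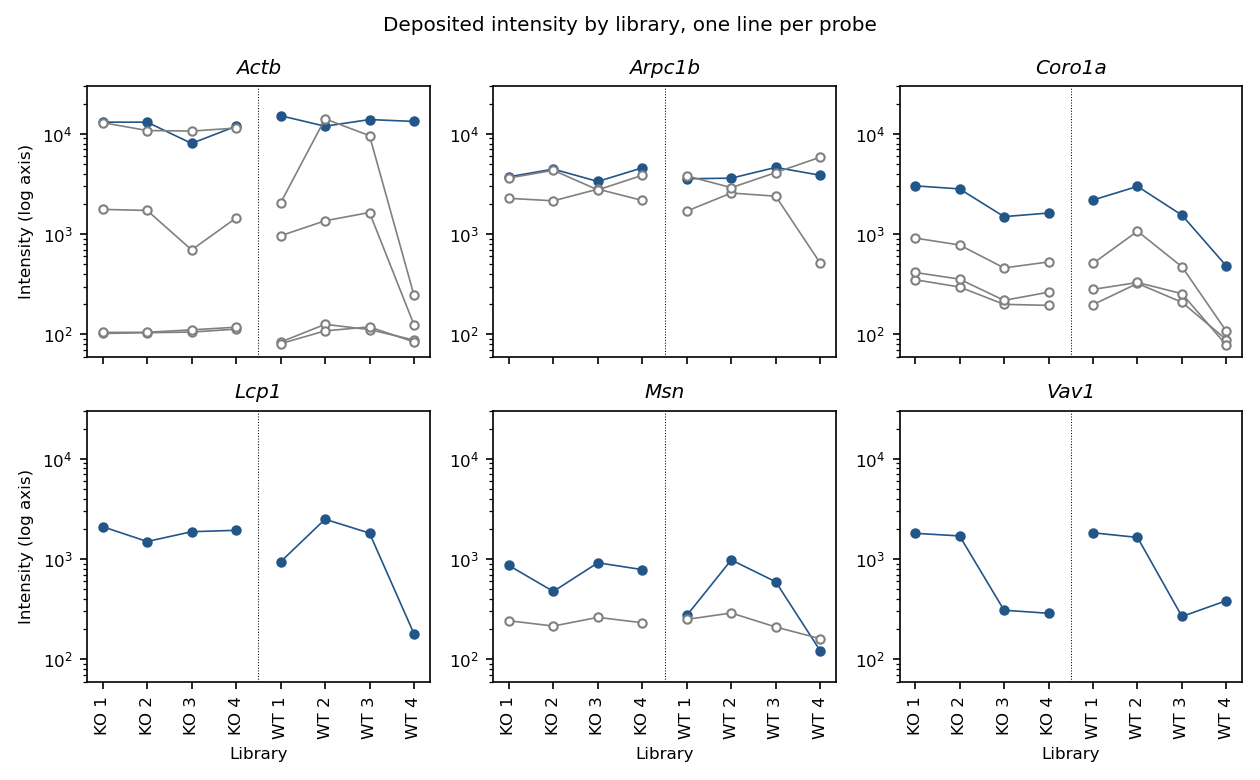
Deposited intensity on a log axis (y) in each library (x) for 5 actin genes and Vav1, with 1 line per kept probe, filled for the probe with the highest mean and open for the others. In WT 4, 2 Actb probes fall to 246 and 125 while the filled one reads 13293, and the Vav1 probe is high in the libraries numbered 1 and 2 under both labels.

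Alpha-actinins cross-link filaments and sit in adhesion plaques. Actn4 read 459, 351, 308 and 359 in KO 1 to KO 4 and 252, 433, 447 and 86.4 in WT 1 to WT 4 on its brightest probe, again with WT 4 and WT 1 lowest. Its log2 fold change on that probe was 0.61 ± 0.54 (SE), and 0.0020 without WT 4. The second Actn4 probe gave 0.48 ± 0.29 (SE), 0.23 without WT 4 and -0.039 without WT 1 as well. Actn1 read 1755, 2098, 1819 and 1909 in KO 1 to KO 4 and 2096, 1716, 1634 and 2706 in WT 1 to WT 4, where WT 4 was instead the highest. Its log2 fold change was -0.08 ± 0.17 (SE), and 0.07 without WT 4. Flna, which encodes the cross-linker filamin A, read 1122, 1072, 681 and 956 in KO 1 to KO 4 and 886, 961, 821 and 322 in WT 1 to WT 4. The filamin A value was 0.47 ± 0.35 on the log2 scale (SE), and 0.09 without WT 4.

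The plaque genes Vcl, Tln1 and Pxn encode vinculin, talin and paxillin, which join integrins to actin. Vcl read 1465, 1490.0, 918 and 993 in KO 1 to KO 4 and 1559, 1359.7, 1052 and 1760.1 in WT 1 to WT 4. Apart from WT 4, its libraries numbered 1 and 2 lay above those numbered 3 and 4. The log2 fold change between the labels was -0.25 ± 0.22 (SE), and -0.14 without WT 4. Tln1 and Pxn were near the array's median, with means of 108 ± 9.09 and 123 ± 10.9 in the libraries labelled KO and 101 ± 26.3 and 111 ± 20.8 in those labelled WT (SD, n = 4 each). Their log2 fold changes were 0.18 ± 0.23 and 0.20 ± 0.18 (SE), or 0.00056 and 0.08 without WT 4. Marcks and Marcksl1, membrane-bound actin cross-linkers, had log2 fold changes of -0.26 ± 0.23 and 0.0078 ± 0.19 (SE), or -0.015 and 0.03 without WT 4. WT 4 was the highest library for Marcks, at 6878, and the rest read 3006 to 3865.

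Actin and vinculin genes are known targets of serum response factor, which binds a motif called the CArG box. RefSeq windows of build GRCm38.p6, from 250 bases before to 50 after a gene's start, were at hand for 38 of the 45 genes, in 48 windows. A CArG box, searched on both strands, lay in 3 of the 48 (6.25%), in Arpc4, Actg1 and Vcl, and in 1.63% of all 32851 windows. The boxes are shown in capitals within their flanking bases because they mark which listed genes carry this motif near the start, at chr14:20929156-20929195 (plus strand) for Vcl, chr6:113377863-113377887 (plus strand) for Arpc4 and chr11:120348561-120348600 (minus strand) for Actg1.
Vcl: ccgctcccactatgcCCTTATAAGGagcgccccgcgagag
Arpc4: CCTAATTTGGtgcccaacctgaggt
Actg1: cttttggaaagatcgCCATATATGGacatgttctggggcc
Between the labels Vcl and Arpc4 did not pass the test, and Actg1 was not measured. A match describes the letters in the window and shows no binding.

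The pattern that most separated the libraries was the reading of WT 4, and it differed between probes. On the brightest probes, 13 of the 39 genes (33.3%) were more than 2-fold below the mean of the other 7 libraries in WT 4, where 10.7% of all genes were. Of the 39, 1 gene, Rdx, was more than 2-fold above it, where 6.38% of all genes were. All genes were not matched to the 39 in intensity, and the offset applied before log2 shrinks differences of dim probes. The 2-fold shares in this paragraph are therefore not like for like. WT 4 was the lowest of the 8 libraries in 20 of the 39 genes, where it was in 34.8% of all genes, and the highest in 11, where it was in 44.1%. In 12 of those 20 genes WT 1 was the next lowest, a combination found in 30.8% of the 39 genes and 11.9% of all genes. For each library besides WT 4, departures were taken from the mean of the 7 others, WT 4 included. They exceeded 2-fold in 2 of the 39 genes, Lcp1 and Msn, and in 1.22% of all genes. WT 4 was low in both genes, which lowers the mean that the other libraries were set against, so these counts are not independent of WT 4.

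Probes of the same gene gave different accounts of WT 4. Of the 39 genes 14 had 2 or more kept probes, and in 12 of these the probes lay more than 2-fold apart in how far WT 4 departed from the other 7 libraries, where this held for 38.2% of the 2763 genes with several kept probes. The 2 exceptions were Diaph1 and Capg. The median gap between the outermost probes was 2.03 on the log2 scale for the 14 genes and 0.77 for all. In the other libraries, measured against the 6 others without WT 4, such gaps were seen in 2 of the 14 genes in WT 1 (Actb and Msn), where 1.41% of all genes had one, and in 1 of 14 in KO 3 (Actb), where 1.01% did. They were seen in 0 of 14 in KO 1, KO 2, KO 4, WT 2 and WT 3, where 0.109%, 0.145%, 0.181%, 0.832% and 0.181% of all genes had one. A gap between outermost probes can widen with the number of kept probes, which was 2 to 5 in the 14 genes. All genes with several kept probes were not matched to the 14 in probe number or intensity, so these shares and medians are not like for like.

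In 3 of the 14 genes, Arpc1b, Arpc5 and Wasf2, 1 probe was more than 0.5 above and another more than 0.5 below the other libraries in WT 4, on the log2 scale, where this held for 15.3% of all genes with several probes. Arpc1b shows the contrast most plainly. One probe read 3627, 4328, 2759.6 and 3861 in KO 1 to KO 4 and 3809, 2905, 4109.8 and 5851 in WT 1 to WT 4, so that WT 4 was the highest library. Another read 2275, 2148, 2808 and 2168 in KO 1 to KO 4 and 1698, 2569, 2388 and 514 in WT 1 to WT 4, so that WT 4 was the lowest. For Arpc5, 1 probe was at 255 in WT 4 and at 704 to 1143 elsewhere, while a dim one was at 154 in WT 4 and at 95.7 to 116 elsewhere. On the brightest Arpc5 probe, given above, WT 4 lay within the range of the other libraries. In 5 of the 14 genes the kept probes differed in the sign of the log2 fold change between the labels. The share over all genes with several kept probes was not counted, so this number has nothing to be set against. The part of probe position, transcript form and RNA quality in these gaps was not tested, since no value here measures them.

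**Figure D4:**
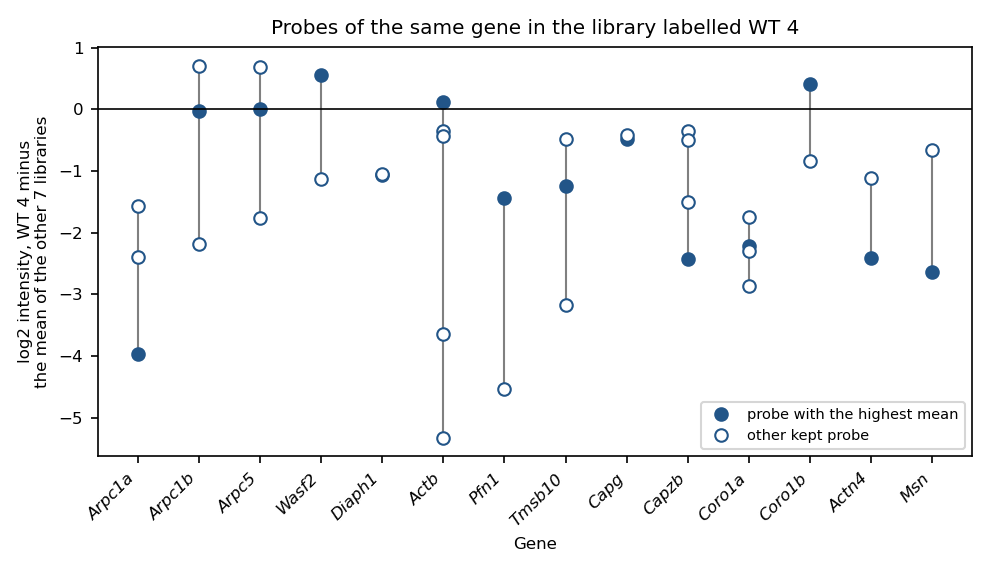
Log2 intensity in WT 4 minus the mean of the other 7 libraries (y axis) for every kept probe of the 14 genes with several (x axis), joined by a line within a gene. Filled points are the probes with the highest mean. The Actb probes span from -5.32 to 0.12, while those of Diaph1 and Capg lie together.

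Genes around the list were read from 3 further lists of known roles. Among WAVE complex subunits, adaptors and formins, 21 of 30 were measured, 0 passed, 6 values were positive and 15 negative, and the median was -0.15, or -0.0027 without WT 4. Diaph3, a formin, was at -0.42 ± 0.21 and Abi1, a WAVE complex subunit, at -0.21 ± 0.13 (SE), or -0.26 and -0.12 without WT 4. Of 33 podosome scaffold and kinase genes 20 were measured and 0 passed, with 9 positive and 11 negative values and a median of -0.0053, or 0.02 without WT 4. Crkl, an adaptor, was at 0.29 ± 0.13 and Fermt3, the integrin activator of blood cells, at 0.98 ± 0.63 (SE), or 0.22 and 0.24 without WT 4. Of 32 myosins, tropomyosins and other actin binders 26 were measured and 0 passed, with 12 positive and 14 negative values and a median of -0.043, or -0.0053 without WT 4. Tpm3, a tropomyosin, was at 0.88 ± 0.57, and 0.24 without WT 4, and Aif1, an actin bundler of macrophages, at -0.15 ± 0.11 (SE), the second of these -0.12 without WT 4. These 6 genes are those with the smallest unadjusted p of their lists, and all had an adjusted p of 0.795 in limma.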

How the data were processed

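Trizol extracts of total RNA were cleaned on columns and biotin-labelled for Illumina beadchips, per the labels' protocols. The table the authors deposited holds intensity per probe on a linear scale, for 45281 probes and 8 arrays. Its sorted columns differ by at most 1.17, as after quantile normalization, and the sources used here name neither the software nor any background step. The other deposited table went unused, since the names of its 8 signal columns match no sample label. Symbols were taken from the platform annotation (34885 probes with 1 symbol, 18 with several, 10378 with none) and looked up by identifier in RefSeq GRCm38.p6, which changed 0.

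In limma 3.58.1 (R 4.3.3), normexp with an offset of 50 was applied before taking log2, which shrinks differences of dim probes. Testing covered the 13479 probes reaching 100 on 4 or more arrays, 64 of them from the listed genes, and each gene is represented by its kept probe of highest mean. The labels were compared by lmFit and eBayes, with Benjamini-Hochberg adjustment over all kept probes and a threshold of 0.05. Because no unnormalized signal could be mapped to a sample, normexp took the place of the neqc alternative in the design. On simulated data for this comparison (13479 probes), the fit recovered 16% of changes set at 1.5-fold, 72% of those at 2-fold and 98% of those at 4-fold. It made 6 false calls there. The simulated noise was independent between probes, with no library that departs across many genes as WT 4 did. These shares therefore need not hold for the real arrays. Nor need they hold for the actin genes, whose median SE was 0.22 against 0.17 over all genes. The members and lists were chosen with earlier results of these data known. By rule, values in each library are given for the 2 smallest p and the largest spread per role, for genes with a library over 2-fold from the rest, for genes parting the labels or the numbers, and for paralogue pairs, and the 2 smallest p of each further list are named. One further list is not reported here. Other library values and genes were chosen after they were seen. The number of arrays limits the precision.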

Additional observations from a re-analysis of the deposited data

Results flagged for a closer look

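In 11 of 128 groups of 4 libraries, over the 64 kept probes of the actin genes, 1 library lay far from the other 3 by Dixon's ratio on the log2 scale, which chance alone exceeds in about 1 in 20 groups. The share over all kept probes was not counted. Probes read on the same arrays are not independent, so the rate of 1 in 20 is no yardstick for the 11. WT 4 was the distant library in 7 of the 11, and over all genes it was more than 2-fold from the other 7 in 17.1%. It was low for Arpc1a, at 89.6 on the brightest probe against 749.9 to 1211 in WT 1 to WT 3, and at 102 on another against 373 to 482. It was low at 82.4 on the second Pfn1 probe (against 978 to 1576), at 358 for Capzb (1604 to 1947), at 77.8 on a further Coro1a probe (254 to 329) and at 322 for Flna (821 to 961). It was high for Rdx, at 249 against 115 to 128.

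KO 3 was the distant library on 3 probes that do not represent their gene. It read 546 for Arpc1a against 405 to 419.9 in the other libraries labelled KO, 1143 for Arpc5 against 704 to 754, and 166 for Capzb against 129 on each of the others. KO 2 was low for Capza1, at 284 against 336 to 341.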

How the results depend on the processing

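No actin gene passed under any alternative run. Over all probes, 0 passed except 1 without WT 4 with the replicate block, 2900060B14Rik (log2 fold change -1.85, adjusted p = 0.0137 in limma), and 9 to 938 probes had an unadjusted p under 0.05. The replicate block alone gave 0 probes (27 at an unadjusted p under 0.05). As each number occurs once under each label, that block leaves every log2 fold change as it was. It could therefore change no sign. Libraries of the same number correlated at -0.17 to 0.46 in their deviations from the group means, over 4 pairs. Those of different number correlated at -0.43 to 0.38, over 12 pairs. The labels do not say that the numbers pair libraries, so the main fit took no pairing.

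Leaving out 1 library in turn moved the median of the actin genes between 0.03 and 0.12, the genes parting numbers 1 and 2 from 3 and 4 between 2 and 5, and those parting the labels between 0 and 2. The numbers were parted in 4 of 39 without WT 1 (12.1% of all genes) and in 5 without WT 4 (14.5%). They were parted in 2 without KO 1 (8.9%), and in 3 without KO 2, KO 3, KO 4, WT 2 or WT 3 (9.66% to 12.2%). The labels were parted in 1 of 39 without KO 1 (2.17% of all genes), 2 without KO 3 (3.76%) and 2 without WT 2 (7.38%). With a library left out, fewer values need to stay apart. The mean of all kept probes parted the numbers in 1 gene (8.17% of all genes). Leaving out WT 1 and WT 4 together, chosen after seeing the data, parted the labels in 1 gene (5.15%). In that setting the numbers were parted in 8 of 39 (19.5% of all genes).

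No log2 fold change of an actin gene changed sign with an offset of 16 or with no background correction. Dropping the filter, a minimum of 150 (33 genes measured) and a mean-variance trend leave the log2 fold change of a given probe as it was. Those settings could therefore change no sign. Signs did change in the settings below, among values that did not pass the test, and the cause was not tested. Array weights gave log2 fold changes of Actn1 0.022, Actr3 0.051, Cfl1 -0.056, Rdx 0.10, Was 0.081, Wasf2 0.080 and Wipf1 0.10. The mean of all kept probes gave Actb 0.61, Arpc5 0.11, Coro1b 0.11 and Wasf2 0.096. Without WT 4 and with the replicate block the values were Actn1 0.063, Actr3 0.040, Arpc1b -0.034, Arpc4 -0.023, Cfl1 -0.057, Diaph1 -0.0046, Evl -0.032, Rdx 0.13, Was 0.040, Wasf2 0.11 and Wipf1 0.041. Without both WT 1 and WT 4 they were Actn1 0.18, Actn4 -0.29, Actr3 0.11, Arpc1a -0.036, Arpc1b -0.034, Arpc2 0.050, Arpc4 -0.22, Cap1 0.11, Capza1 -0.11, Capzb -0.018, Cfl1 -0.068, Coro1a -0.011, Coro1b 0.034, Coro1c 0.027, Diaph1 -0.16, Gsn -0.13, Lcp1 -0.21, Marcks 0.052, Msn -0.050, Pxn -0.052, Rdx 0.15, Tln1 -0.19, Twf1 -0.023, Wasf2 0.16 and Wipf1 0.0040. Leaving out 1 library in turn changed a sign in Actn1 (-0.18 to 0.068), Actr3 (-0.29 to 0.055), Arpc1b (-0.030 to 0.12), Arpc4 (-0.031 to 0.49), Capza2 (-0.015 to 0.15), Cfl1 (-0.11 to 0.20), Coro1a (-0.020 to 0.88), Evl (-0.12 to 0.12), Marcksl1 (-0.11 to 0.13), Rdx (-0.28 to 0.15), Tmsb10 (-0.033 to 0.50), Was (-0.20 to 0.023), Wasf2 (-0.18 to 0.11) and Wipf1 (-0.23 to 0.054).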
